A study of Mus musculus with 16 samples.

Results

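The genes described here are the interleukin-1 family ligands, their receptors and their soluble antagonists, measured in mouse pulmonary endothelial cells (ECs) after lipopolysaccharide (LPS). They were chosen by gene symbol, which gave 10 of the 54532 genes in the tables: the ligands Il1a, Il1b, Il18 and Il33, the antagonists Il1rn and Il18bp, the receptor chains Il1r1, Il1rap and Il1rl1, and the decoy receptor Il1r2. RNA-seq was performed in bulk on the CD31+ CD45- fraction that beads had sorted from digested lung, 24 h after an instillation into the trachea. In the first experiment, male wild-type (WT) C57/BL6J mice of 8 weeks received saline (4 libraries) or LPS at 10 mg/kg (6 libraries). In the second, LPS at 2 mg/kg was given to every mouse, and 3 libraries were from Fgfr1 loxP/loxP and 3 from Fgfr1 iΔEC/iΔEC mice. The Fgfr1 iΔEC/iΔEC mice carry the floxed Fgfr1 alleles of their controls together with VE-cadherin-CreERT2, a tamoxifen-inducible recombinase driven by an endothelial promoter, and both genotypes were given tamoxifen. Neither the labels nor the methods give the age of these mice, and the second experiment has no saline group, so dose, genotype and experiment cannot be told apart between the experiments and each comparison was made within one of them.

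Interleukin-1α and interleukin-1β bind the receptor IL-1R1, which recruits the accessory chain IL-1RAP and signals through MYD88 and the IRAK kinases to NF-κB. The receptor antagonist encoded by Il1rn occupies IL-1R1 without signaling, and the decoy receptor encoded by Il1r2 binds the ligands but lacks the signaling domain. Interleukin-18 and interleukin-33 use related receptors of the same family, interleukin-18 is held by the binding protein of Il18bp, and ECs are known to respond to interleukin-1 with adhesion molecules and chemokines that draw in leukocytes.

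Between 13478726 and 19043015 reads fell on genes in the 16 libraries. Values are FPKM as the authors deposited them, scaled for gene length and library size, so levels can be compared between genes. Fold changes were taken on log2(FPKM + 1), which understates the change of genes with low levels. A gene was called when its limma p, adjusted after Benjamini-Hochberg over every gene tested, did not exceed 0.05 and its log2 fold change was 1 or more in either direction.

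Fgfr1 was read first as a check of the labels. In the second experiment it was at 2.90, 2.91 and 2.59 FPKM in the 3 Fgfr1 loxP/loxP libraries and at 0.683, 1.41 and 1.15 FPKM in the 3 Fgfr1 iΔEC/iΔEC libraries. All 3 Fgfr1 iΔEC/iΔEC libraries were below all 3 controls, as the labels say, with a log2 fold change of -0.88 ± 0.16 (SE) and an adjusted p of 0.962 by limma. In the first experiment Fgfr1 was at 2.82 to 5.52 FPKM after saline and at 1.05 to 2.55 FPKM after LPS.

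The endothelial identity of the cells was read from 10 endothelial markers, all detected in all 16 libraries. Their summed level was 3452 to 5874 FPKM after saline and 1509 to 3559 FPKM after LPS, with Cldn5, a tight junction gene, the most abundant. Of the 10 markers, 4 were called lower and none higher after LPS, with a median log2 fold change of -0.74, and the groups did not overlap in the mean of the list. Pecam1, which encodes CD31, did not pass the test (log2 fold change -0.17 ± 0.21, adjusted p = 0.516 by limma), and Cdh5, which encodes VE-cadherin, was lower by less than the fold limit (-0.88 ± 0.22, adjusted p = 0.00575 by limma). Leukocyte genes were detected in every library although cells with CD45 had been removed: Ptprc, which encodes CD45, was at 3.53 to 11.0 FPKM after saline and at 22.1 to 52.7 FPKM after LPS. In bulk libraries such as these, fewer cells of a type and less RNA per cell cannot be told apart.

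Positions are given in build GRCm38, as in the files. The receptor genes lie in a row on the forward strand of chromosome 1: Il1r2 (40074079 to 40125231), Il1r1 (40225080 to 40317257), Il1rl2, Il1rl1 (40429570 to 40465415), Il18r1 and Il18rap. On chromosome 2, Il1rn (24336853 to 24351494, forward strand) ends a row of interleukin-36 and related ligand genes, and Il1a (129299610 to 129309972) and Il1b (129364570 to 129371139) lie side by side on the reverse strand, far from Il1rn. Il1rap is on chromosome 16 (26581704 to 26730117), Il18 on chromosome 9 (50554827 to 50581840) and Il33 on chromosome 19 (29925114 to 29960718), all on the forward strand, and Il18bp is on the reverse strand of chromosome 7 (102014885 to 102018690). Il1a, Il1b, Il18bp and Il1rap share exon bases with a gene of the opposite strand (Gm14023, Il1bos, Numa1 and Gm20319), and since the strandedness of the libraries is not stated, reads of such partners cannot be told apart.

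The promoters of the 4 members called after LPS are shown, since the results turn on these genes. RefSeq (GRCm38.p6) gave promoter windows for 10 of 10 members, 15 windows in all, and the 250 bases before the annotated start are printed 5′ to 3′ on the strand of the gene. Capitals mark matches to 4 motifs searched on both strands: GGGA, any 4 bases and CC for NF-κB, TGANTCA for AP-1, TTGCNNAA for C/EBP, and GAAA, any 2 bases and GAAA for the interferon response element. The windows are chr2:129309973-129310222 (reverse strand) for Il1a, chr2:129371140-129371389 (reverse strand) for Il1b, chr2:24336610-24336859 (forward strand) for the first window of Il1rn, and chr1:40085843-40086092 (forward strand) for Il1r2. The first 2 lie directly outside their genes, that of Il1rn reaches the first bases of the gene, and that of Il1r2 lies inside the gene as the files place it.
Il1a: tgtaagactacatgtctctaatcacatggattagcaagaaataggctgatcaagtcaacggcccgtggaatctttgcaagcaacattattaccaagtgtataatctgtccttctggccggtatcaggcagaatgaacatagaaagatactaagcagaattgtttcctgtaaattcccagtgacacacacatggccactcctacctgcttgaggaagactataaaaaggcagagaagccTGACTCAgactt
Il1b: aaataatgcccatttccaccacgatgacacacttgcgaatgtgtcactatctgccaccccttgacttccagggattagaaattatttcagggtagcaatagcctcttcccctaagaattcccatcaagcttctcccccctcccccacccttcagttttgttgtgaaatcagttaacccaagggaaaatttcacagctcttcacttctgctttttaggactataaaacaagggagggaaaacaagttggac
Il1rn: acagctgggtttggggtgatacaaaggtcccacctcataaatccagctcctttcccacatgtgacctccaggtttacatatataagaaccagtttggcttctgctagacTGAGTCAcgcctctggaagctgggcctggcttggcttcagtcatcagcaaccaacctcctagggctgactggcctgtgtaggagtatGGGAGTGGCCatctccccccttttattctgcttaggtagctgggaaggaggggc
Il1r2: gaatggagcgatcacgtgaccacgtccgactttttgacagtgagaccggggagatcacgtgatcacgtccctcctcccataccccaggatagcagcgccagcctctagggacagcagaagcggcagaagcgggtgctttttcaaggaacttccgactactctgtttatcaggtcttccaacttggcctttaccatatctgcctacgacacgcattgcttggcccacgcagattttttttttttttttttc

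Il1a held TGACTCA, the AP-1 letters, at 12 to 6 bases before its start. Il1rn held TGAGTCA at 141 to 135 bases and the NF-κB letters GGGAGTGGCC at 54 to 45 bases before its start. The windows of Il1b and Il1r2 held none of the 4 motifs, which says only that these letters are not in these windows. Among the other members, the NF-κB letters were found in a window of Il1rap and the C/EBP letters in windows of Il1r1, Il1rl1, Il18bp and Il33, and no member held the interferon element. Of 32851 RefSeq windows of this length, 17.6% held the NF-κB letters, 9.56% the C/EBP letters, 6.75% the AP-1 letters and 2.98% the interferon element.

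The first comparison asked which members of the family differed in ECs 24 h after LPS. The cytokines Il1a and Il1b and both of their inhibitors, the receptor antagonist Il1rn and the decoy receptor Il1r2, were higher after LPS, while the signaling receptor Il1r1 and its partner Il1rap differed by less than the fold limit. Of the 10 members, 9 passed the filter of a mean of 0.5 FPKM, 4 were called higher and none lower. Over all 14893 genes tested, 11.9% were called higher and 6.79% lower. By adjusted p alone, without the fold limit, 6 members were higher and 1 lower, against 29.5% and 23.7% of all genes. The median log2 fold change was 0.79 over the 9 members and 0.01 over all genes tested. The plot of FPKM by library shows each of these genes in all groups.

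**Figure D1:**
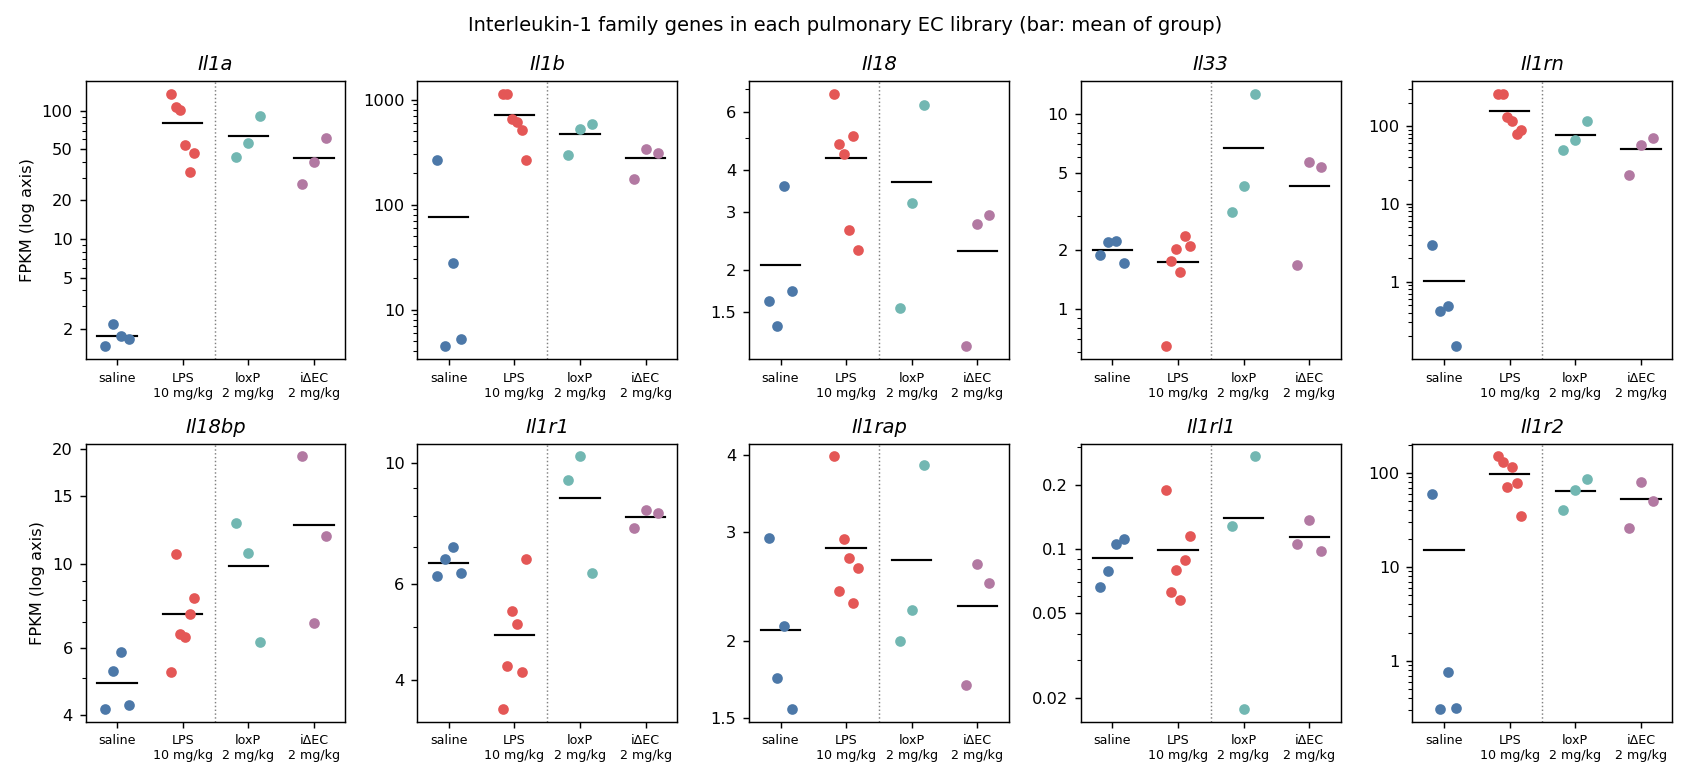
FPKM (log axis, scaled for each gene) of the 10 interleukin-1 family genes in each library, with points for libraries and black bars for group means; the dotted line separates the experiments. Il1a and Il1rn after LPS (at least 33.5 and 78.8 FPKM) lie above all saline libraries (up to 2.17 and 2.96 FPKM), saline 1 stands apart in Il1b and Il1r2, and the 2 genotypes on the right overlap in every gene.

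Il1a, the cell-associated ligand released by injured cells, was at 1.46, 2.17, 1.76 and 1.65 FPKM in saline 1 to 4. After LPS it ranged from 33.5 FPKM (LPS 5) to 136 FPKM (LPS 1), with a median of 78.4 FPKM. The saline libraries lay close together, and no LPS library came near them. The means were 1.76 ± 0.304 FPKM after saline (SD, n = 4) and 80.1 ± 40.8 FPKM after LPS (SD, n = 6), a 45.6-fold rise. On the log2 scale the change was 4.71 ± 0.35 (SE), with an adjusted p of 2.72e-06 by limma.

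Il1b, the secreted ligand made as an inactive precursor, was at 265, 4.46, 27.9 and 5.25 FPKM in saline 1 to 4. After LPS it ranged from 266 FPKM (LPS 6) to 1137 FPKM (LPS 2), with a median of 634 FPKM. The groups did not overlap, but saline 1 came within 1 FPKM of the lowest LPS library, and saline 3 was also above the other saline libraries. The log2 fold change was 4.83 ± 0.94 (SE), with an adjusted p of 0.00146 by limma. The ratio of means was 9.49-fold with all saline libraries and 57.2-fold without saline 1, where the log2 fold change was 6.01.

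Il1rn, the receptor antagonist, was at 2.96, 0.425, 0.486 and 0.147 FPKM in saline 1 to 4. After LPS it ranged from 78.8 FPKM (LPS 5) to 262 FPKM (LPS 1), with a median of 124 FPKM. Again saline 1 was the highest saline library, and all of them were far below the LPS libraries. The log2 fold change of 6.32 ± 0.42 (SE; adjusted p = 1.44e-06 by limma) was rank 4 among the 14893 genes tested. The ratio of means was 155-fold, and 443-fold without saline 1.

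Il1r2, the decoy receptor, was at 59.5, 0.308, 0.763 and 0.320 FPKM in saline 1 to 4. After LPS it ranged from 35.3 FPKM (LPS 6) to 151 FPKM (LPS 1), with a median of 97.5 FPKM. Saline 2 to 4 rest on 12 to 26 reads each, whereas saline 1, with 1501 reads, lay inside the LPS range, so the groups overlapped. The log2 fold change was 4.59 ± 0.96 (SE), with an adjusted p of 0.00225 by limma. Without saline 1 it was 5.93, and the ratio of means went from 6.37-fold to 209-fold.

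Of the 9 members tested, Il1a, Il1b and Il1rn were higher in every LPS library than in every saline library. Over all genes tested, 22.7% were higher without overlap and 16.7% lower.

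The receptor chains that carry the interleukin-1 signal were not called. Il1r1 was at 6.20, 6.68, 7.02 and 6.29 FPKM in saline 1 to 4, and ranged from 3.53 FPKM (LPS 1) to 6.68 FPKM (LPS 6) after LPS, with a median of 4.66 FPKM. Only LPS 6 lay within the saline range. The log2 difference was -0.39 ± 0.14 (SE, adjusted p = 0.0369 by limma), under the fold limit. When single libraries were left out, the adjusted p passed only without saline 1, LPS 3 or LPS 6, and otherwise reached up to 0.0887. Without the filter on low values it was 0.0723 by limma. With the libraries scaled on the endothelial markers the sign turned and the test was not passed (0.24, adjusted p = 0.304 by limma). That scaling divides each library by 1 factor and so moves genes together, with a median of 0.58 over all genes. The place of Il1r1 below that median is therefore no separate result. Il1rap was at 1.55 to 2.93 FPKM after saline and at 2.30 to 3.98 FPKM after LPS, and did not pass the test (0.32 ± 0.15, adjusted p = 0.104 by limma). Without saline 1 (0.44, adjusted p = 0.0231 by limma) and with endothelial scaling (0.84, adjusted p = 0.0178 by limma) the adjusted p of Il1rap passed, under the fold limit.

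Among the interleukin-18 and interleukin-33 genes no call was made. Il18, a ligand that is cut by caspase-1, was at 1.61, 1.36, 3.58 and 1.72 FPKM in saline 1 to 4, and at 2.29 to 6.80 FPKM after LPS with a median of 4.63 FPKM. Saline 3 lay among the LPS libraries and the other 3 below all of them. The log2 difference of 0.79 ± 0.26 (SE, adjusted p = 0.0252 by limma) was under the fold limit, and Il18 rests on 22 to 129 reads in these libraries. Il18bp, the interleukin-18 binding protein, had a smaller difference (0.49 ± 0.17, adjusted p = 0.0278 by limma), from 4.15 to 5.85 FPKM after saline and 5.19 to 10.6 FPKM after LPS, with overlap. Leaving out single libraries raised the adjusted p to 0.0777 for Il18 and 0.0803 for Il18bp. Il18 was called higher with a pseudocount of 0.1 (1.04), limma-voom (1.08) and endothelial scaling (1.33), and Il18bp with endothelial scaling (1.12).

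Il33, an alarmin kept in the nucleus of barrier cells, was at 1.89, 2.21, 2.23 and 1.73 FPKM in saline 1 to 4 and ranged from 0.640 FPKM (LPS 1) to 2.37 FPKM (LPS 5) after LPS, with a median of 1.89 FPKM. LPS 1 alone was below the saline range by more than the spread of that group, and the difference did not pass the test (-0.17 ± 0.19, adjusted p = 0.459 by limma). The value of Il33 was 0.28 with endothelial scaling, where the median over all genes was 0.58. Il1rl1, which encodes its receptor ST2, was at 0.0658 to 0.111 FPKM after saline and 0.0577 to 0.189 FPKM after LPS, or 6 to 24 reads. It did not pass the filter, and a difference was not detectable at this depth. The defining markers of ST2-rich cells were low as well: the 6 mast cell and basophil markers summed to at most 6.21 FPKM, and the 4 markers of group 2 innate lymphoid cells to 2.68 to 8.60 FPKM after saline and 1.10 to 1.97 FPKM after LPS. Gata3, which T cells express too, led the latter list and was called lower (-1.61), and Il5 and Il13 were listed at 0 in some libraries.

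**Figure D2:**
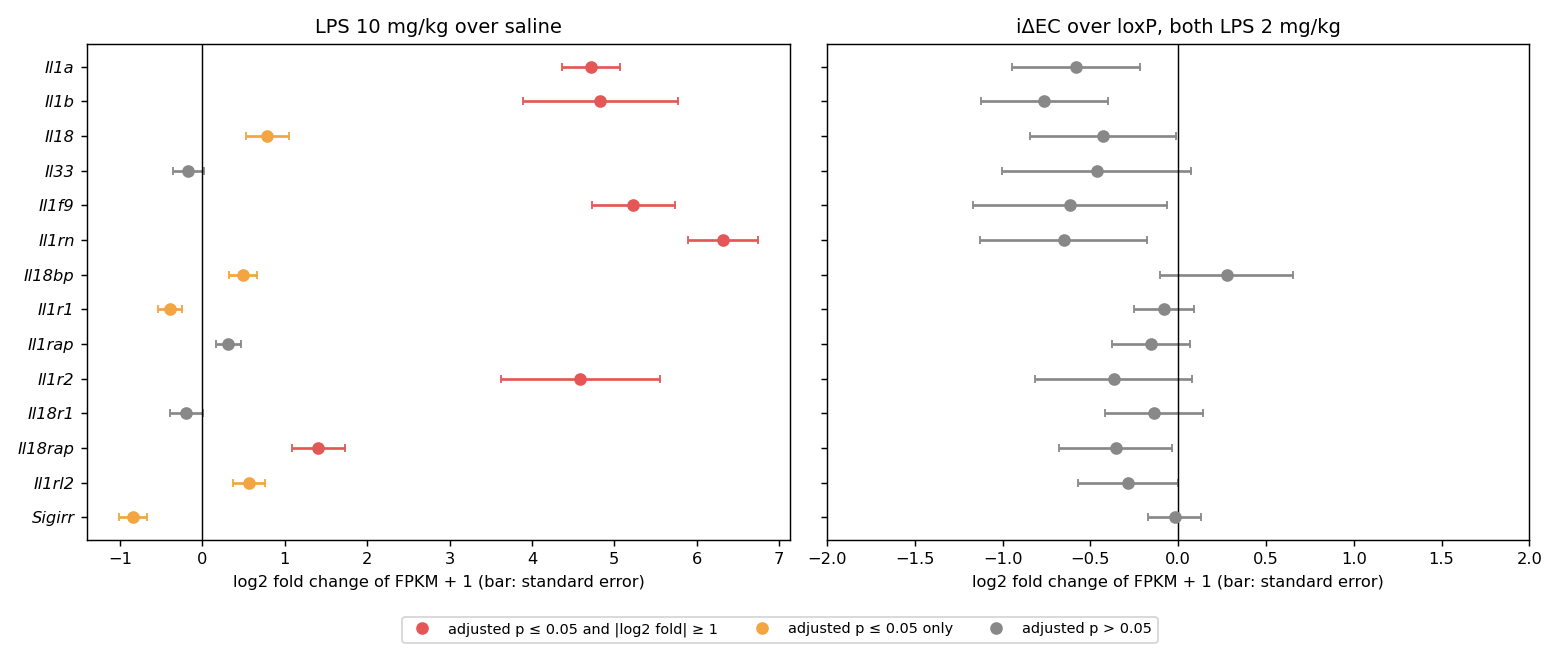
Log2 fold changes of FPKM + 1 with standard errors for the interleukin-1 family members that were tested, Il1f9 and 4 further family receptors. On the left (LPS 10 mg/kg over saline, n = 6 and 4) Il1rn reaches 6.32, and Il1r1, Il33, Il18r1 and Sigirr lie below 0. With endothelial scaling Il1r1 turns to 0.24 and Il33 and Il18r1 to 0.28. On the right (Fgfr1 iΔEC/iΔEC over Fgfr1 loxP/loxP, n = 3 and 3) no gene passes the test, and the 2 panels have different scales.

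The levels were also ordered within each group. After saline, Il1r1 was the most abundant member in saline 2 and saline 4, and Il1b in the other 2 libraries. Il1b was the most abundant member in all 12 libraries of mice given LPS. By the group mean it led after saline too (75.6 ± 127 FPKM, SD, n = 4), with saline 1 at 265 FPKM. After LPS at 10 mg/kg Il1rn followed (156 ± 82.3 FPKM, SD, n = 6), then Il1r2 (97.0 ± 42.8 FPKM) and Il1a (80.1 ± 40.8 FPKM). The ranges of these 3 overlapped, although Il1rn was above Il1a in each of the 6 libraries, while the lowest Il1b library (266 FPKM) was just above the highest Il1rn library (262 FPKM). Il18bp, Il1r1 and Il18 came next at means of 7.36, 4.83 and 4.34 FPKM with overlapping ranges, then Il1rap and Il33 at 2.83 and 1.74 FPKM, and Il1rl1 was last at 0.0987 FPKM.

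The balance of ligand, antagonist and receptor was compared as ratios within a library, with 0.1 FPKM added to each gene. The ratio of Il1rn to Il1b was 0.0116, 0.115, 0.0209 and 0.0462 in saline 1 to 4, and ranged from 0.155 (LPS 5) to 0.338 (LPS 6) after LPS. With this addition every LPS library was above every saline library. The mean log2 ratio went from -4.89 ± 1.44 (SD, n = 4) to -2.20 ± 0.38 (SD, n = 6), a difference of 2.69 (two-sided exact permutation p = 0.00952, 0.0762 after Benjamini-Hochberg adjustment over 8 tests). With 1 FPKM added instead, the difference was 1.49 and the adjusted exact permutation p was 0.610.

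The ratio of the decoy Il1r2 to the signaling receptor Il1r1 was 9.45, 0.0602, 0.121 and 0.0656 in saline 1 to 4 and 5.22 to 41.5 after LPS. In saline 2 to 4 the signaling receptor exceeded the decoy, and in all 6 LPS libraries and in saline 1 the decoy exceeded the signaling receptor. The log2 ratio differed by 6.13 (two-sided exact permutation p = 0.0190, adjusted 0.0762). Without saline 1 it differed by 7.86, and with 1 FPKM added by 4.98 (adjusted exact permutation p = 0.152). The ratios of Il18bp to Il18 (-0.47, exact permutation p = 0.257) and of Il1rl1 to Il33 (0.33, exact permutation p = 0.733) did not pass either. None of the 8 tests passed after adjustment. The smallest p that this two-sided test allows with 4 against 6 libraries is 0.00952, which the ratio of Il1rn to Il1b reached.

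**Figure D3:**
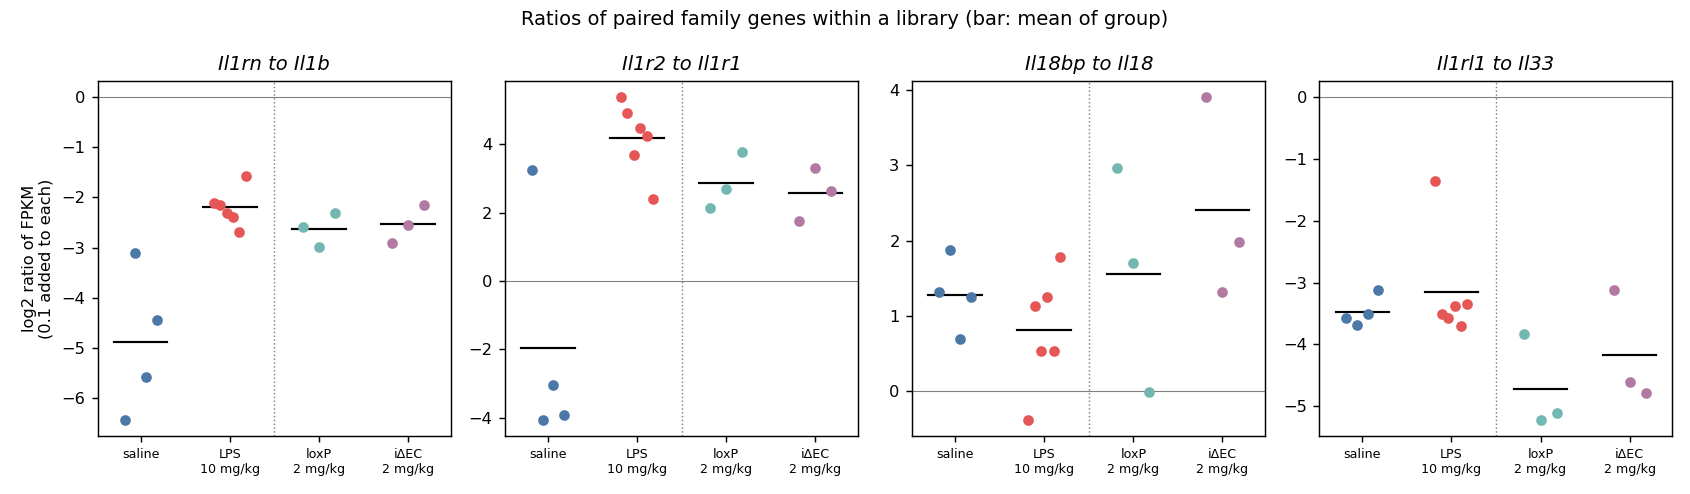
Log2 ratios of FPKM (0.1 added to each gene) within a library for the antagonist Il1rn to Il1b, the decoy Il1r2 to Il1r1, Il18bp to Il18, and Il1rl1 to Il33; points are libraries, black bars group means, and the dotted line separates the experiments. The Il1rn to Il1b ratio of all 6 LPS libraries (at least -2.69) is above that of all 4 saline libraries (at most -3.12), and saline 1 lies at 3.24 in the Il1r2 to Il1r1 panel.

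The other genes of the pathway were read from lists made by known function. Of 5 further ligand genes, only Il1f9, which encodes interleukin-36γ, passed the filter. It was at 3.94, 0.192, 1.29 and 0.247 FPKM in saline 1 to 4 and at 39.0 to 163 FPKM after LPS. Every LPS library was above every saline library, with saline 1 again the highest of its group, and the log2 fold change was 5.23 ± 0.50 (SE, adjusted p = 1.53e-05 by limma). Il1f6 was at most 0.768 FPKM in the first experiment, and Il1f5, Il1f8 and Il1f10 were at or near 0. Of the 6 further receptor genes, 4 were tested. Il18rap, the accessory chain of the interleukin-18 receptor, was called higher (1.41 ± 0.32, adjusted p = 0.00366 by limma), whereas Il18r1, its ligand-binding chain, did not pass the test (-0.19 ± 0.20, adjusted p = 0.441 by limma, and 0.28 with endothelial scaling). Sigirr, which encodes an inhibitory receptor of the family, was at 19.4 to 23.1 FPKM after saline and 7.66 to 16.3 FPKM after LPS. Its groups did not overlap, and its log2 difference of -0.84 ± 0.17 (adjusted p = 0.00156 by limma) was under the fold limit. With total-read scaling or quantile normalization (-1.16) Sigirr was called lower, and with endothelial scaling the value was -0.14. Il1rl2, the interleukin-36 receptor, differed by 0.57 ± 0.19 (adjusted p = 0.0279 by limma), and Il1rapl1 and Il1rapl2 were at or near 0.

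Neighbors on chromosome 1 thus had unlike values. Along the row, the log2 fold changes were 4.59 for Il1r2, -0.39 for Il1r1, 0.57 for Il1rl2, -0.19 for Il18r1 and 1.41 for Il18rap, with Il1rl1 too low to test. On chromosome 2 all 4 genes of the family that passed the filter, Il1f9, Il1rn, Il1a and Il1b, were called higher.

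Of 14 genes of signaling adaptors and kinases, 13 were tested, 3 were called higher and none lower, and the median log2 fold change was 0.31. The largest was in Irak3 (3.31 ± 0.22, adjusted p = 1.44e-06 by limma), which encodes the IRAK-M protein that dampens the signal, from 3.04 to 3.93 FPKM after saline to 26.7 to 75.2 FPKM after LPS. Myd88, the adaptor, was called at 1.98 and Irak2 at 1.11. Of the 10 fits without 1 library, the call of Irak2 was lost in 9 and held only without saline 1 (adjusted p up to 0.131 by limma). Its call was also lost without the filter on low values, with scaling on total reads and with quantile normalization. The receptor-proximal kinase gene Irak4 had 0.98, just under the limit, and Irak1 had 0.31 (adjusted p = 0.0567 by limma), or 1.02 and a call with endothelial scaling. That scaling also called Peli1 (1.10) and Tab2 (1.16), which were at 0.41 and 0.45 without it.

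Of 13 genes of maturation and release, 12 were tested, 6 were called higher and 1 lower, with a median of 1.11. Nlrp3 (3.35), the adaptor Pycard (2.16), the interleukin-1β-converting caspase Casp1 (1.86) and Casp4 (1.65) were the largest among those called, and Nlrc4 and Aim2 were the others (Aim2 fell just under the limit, at 0.98, without saline 3). Gsdmd, the gene of the pore through which interleukin-1β leaves cells, had 0.98 and no overlap between groups. Gsdmd and Irak4 were both called higher with a pseudocount of 0.1, endothelial scaling, limma-voom or the replicate block. The gene called lower was Elane (-1.20), a neutrophil elastase gene made in immature neutrophils, at 0.285 to 6.76 FPKM after saline and 0.110 to 0.462 FPKM after LPS, and its call was lost without saline 1 (-0.72), without the filter on low values, with endothelial scaling and with the replicate block.

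Of 14 genes known to respond to interleukin-1, 14 were tested and 13 called higher, with a median log2 fold change of 2.39. The chemokine genes Cxcl2 (6.08), Ccl2 (5.55) and Cxcl1 (3.62) and the growth factor gene Csf3 (5.10) led the list, and Cxcl2 was at 7.49 without saline 1. Ccl2 was at up to 0.238 FPKM after saline and at 35.4 to 71.0 FPKM after LPS, and Csf3 at up to 0.144 and at 23.1 to 53.8 FPKM, so their log2(FPKM + 1) changes understate the ratio. Sele, the endothelial selectin, was called as well (3.36). Vcam1 was the only gene of the list that did not pass (0.58, adjusted p = 0.0701 by limma), and with endothelial scaling it was called higher (1.21). Nfkbia, called at 1.39, lost its call without saline 2, saline 3 or saline 4 (adjusted p up to 0.0581 by limma), without the filter on low values and with quantile normalization. These genes also respond to LPS itself and to other cytokines.

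**Figure D4:**
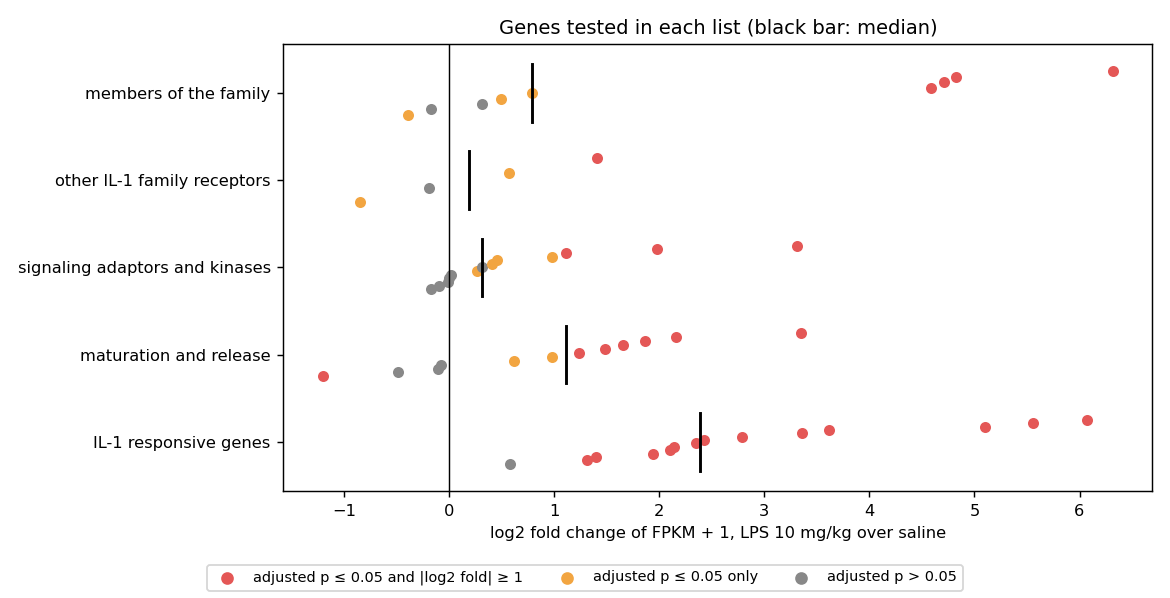
Log2 fold changes of FPKM + 1 (LPS 10 mg/kg over saline) of the genes tested in the interleukin-1 family and in 4 related lists; each point is a gene, colored by whether it passed the adjusted p and the fold limit, and black bars are medians. The medians run from 0.19 for the further receptors to 2.39 for the interleukin-1 responsive genes, with the 4 members called at 4.59 to 6.32.

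Markers of myeloid leukocytes were higher along with the 4 members called, and those of lymphocytes were not. All 6 leukocyte markers, 6 of 8 neutrophil markers and 7 of 8 monocyte and macrophage markers were called higher after LPS. The summed level of the neutrophil markers, with S100a9 the most abundant, was 1401, 74.0, 311 and 78.2 FPKM in saline 1 to 4, and 2726, 6653, 1610, 3440, 2488 and 1290 FPKM in LPS 1 to 6. Of the lymphocyte markers 3 of the 5 tested were called lower and none higher, with a median of -1.11. In neutrophil markers saline 1 was above LPS 6 and saline 3 was next, the same order as for Il1b and Il1r2 in the saline group. Ly6g was listed at 0 in saline 4.

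The monocyte and macrophage markers, with Csf1r the most abundant, summed to 44.9, 22.0, 25.4 and 23.2 FPKM in saline 1 to 4 and 808, 576, 551, 534, 677 and 362 FPKM in LPS 1 to 6. Here the groups lay far apart, saline 1 included, as they did for Il1a and Il1rn. Marco was listed at 0 in saline 1. The part of these cells in the results was not tested.

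**Figure D5:**
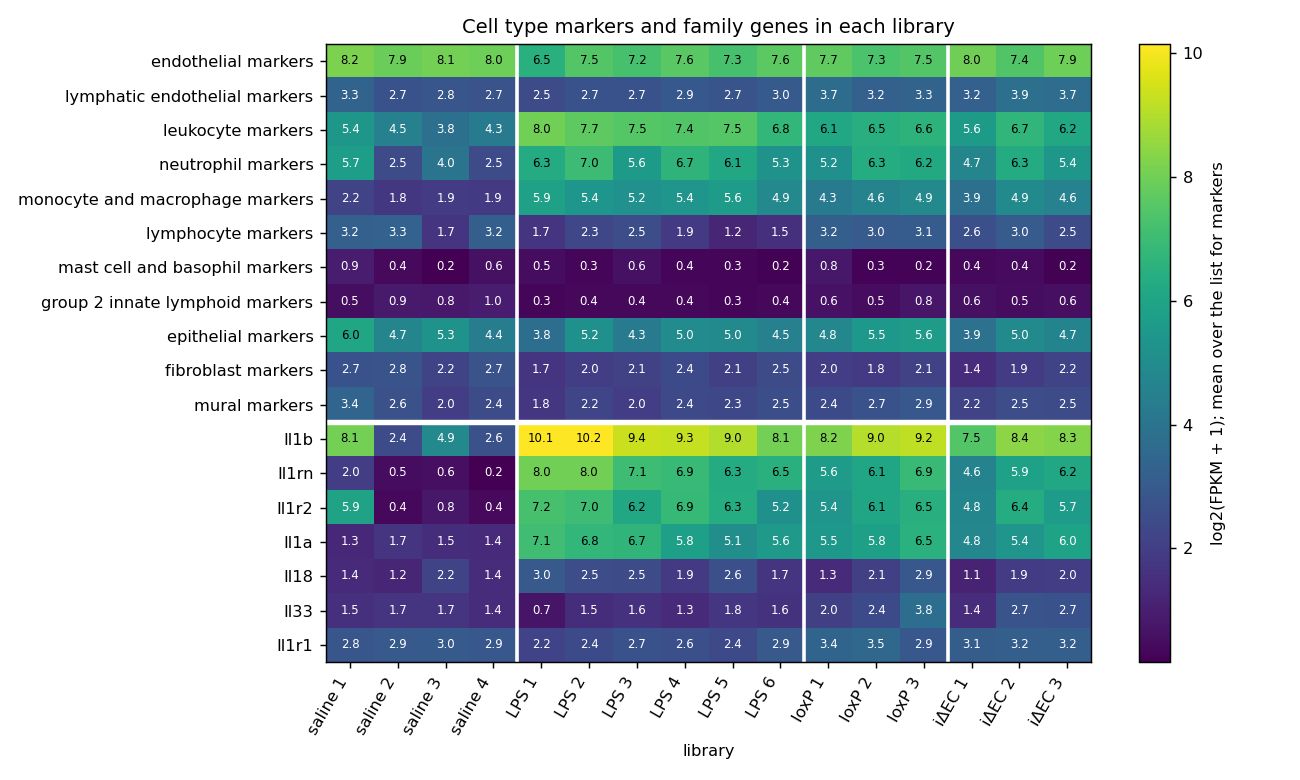
Log2(FPKM + 1) in each library of 11 marker lists (mean over the list) and of 7 interleukin-1 family genes; white lines separate groups and the markers from the genes. Saline 1 differs from saline 2 to 4 in neutrophil markers (5.73 on this scale) as in Il1b, and LPS 1 has the lowest endothelial mean (6.51).

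Likeness within groups was described by Pearson's r over the 10 libraries of the first experiment after each group's mean had been taken off log2(FPKM + 1). These libraries share their isolation and differ in cell content and depth, so no p is given. The genes most like Il1b were Csf3r (r = 0.986), the receptor of granulocyte colony-stimulating factor, Cxcr2 (0.985), a chemokine receptor, and Cxcl2 (0.984). Without saline 1 these were 0.968, 0.949 and 0.947. Both receptor genes are on the neutrophil list. Il1r2 was most like Slc16a3 (0.994), a lactate transporter, Riok3 (0.992) and Nfil3 (0.992), which went to 0.948, 0.949 and 0.952 without saline 1. Il1rn was most like the chemokine gene Ccl3 (0.985), Nfe2l2 (0.972) and the chemokine gene Cxcl3 (0.969).

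The other members had different neighbors. Il1a was most like Gm37691 (0.948), Gm19510 (0.944) and Mreg (0.940), and Il1r1 was most like Zfp711 (0.974), Dchs1 (0.967) and Arhgef10 (0.960). Il18 was most like Abcb8, Cpsf4 and Reep4 (0.948 to 0.954), Il18bp like Pla2g16, Ifit3b and Tle6 (0.936 to 0.945), Il1rap like Lamb3, Plekhm2 and Dhrs9 (0.939 to 0.945), and Il33 like Stx1a, Paqr8 and Thap12 (0.892 to 0.905). Among the members themselves, the order of likeness rested on saline 1. With it Il1r2 and Il1b were the most alike (r = 0.935, and 0.764 without it), followed by Il1rn and Il1b (0.805, and 0.660 without it). Without it Il1rn and Il1a (0.905, and 0.634 with it) and Il18 and Il1b (0.833, and 0.300 with it) came first. Il1r2 and Il1r1 had -0.39 with saline 1 and -0.80 without it.

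The second comparison asked whether loss of Fgfr1 from ECs went with another level of these genes after LPS. No member was called in Fgfr1 iΔEC/iΔEC mice against Fgfr1 loxP/loxP mice, and the 2 genotypes overlapped in all 9 members tested. Of all 14945 genes tested, 0% were called by limma. An unadjusted p under 0.05 was found for 661 of them, and no adjusted p was below 0.742. On the log2 scale, 8 of the 9 members were below 0 in Fgfr1 iΔEC/iΔEC mice, against 46.9% of all genes, with a median of -0.43 over the members and 0.01 over all genes. The count and the median moved when single libraries were left out. Without Fgfr1 iΔEC/iΔEC 1, Il1b was at -0.47, Il1rn at -0.19, Il18 at -0.16, Il33 at -0.0369 and Il1r2 at 0.0559. Without Fgfr1 loxP/loxP 3, Il1b was at -0.58 and Il18 at -0.0397, and Il1rap and Il33 turned to 0.0587 and 0.0540.

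Il1b was at 295, 528 and 579 FPKM in Fgfr1 loxP/loxP 1 to 3 and at 176, 337 and 311 FPKM in Fgfr1 iΔEC/iΔEC 1 to 3. A single control, Fgfr1 loxP/loxP 1, lay inside the range of the Fgfr1 iΔEC/iΔEC libraries. The log2 difference was -0.76 ± 0.36 (SE), with an unadjusted p of 0.0747 and an adjusted p of 0.962 by limma. Il1rn was at 48.8, 66.6 and 117 FPKM against 23.5, 57.6 and 70.2 FPKM (-0.65 ± 0.48), and Il1a at 43.6, 56.1 and 91.1 FPKM against 26.7, 40.0 and 60.9 FPKM (-0.58 ± 0.37). Leaving out single libraries moved the difference from -1.06 to -0.47 for Il1b, -0.96 to -0.19 for Il1rn and -0.87 to -0.29 for Il1a. In each of these genes the first library was the lowest of its genotype, with overlap.

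Libraries with the same number deviated together in this experiment (r = 0.178 to 0.248 between their deviations from the group means), so the numbers were read as pairs. No label says that the numbers mark litters or days, and the pairing rests only on this weak likeness in the same values. Il1a, Il1b, Il1rn and Il18 were lower in the Fgfr1 iΔEC/iΔEC library in 3 of 3 pairs, as were 12.8% of all genes tested, and no member was higher in all 3, as 18% of all genes were. Within the pairs the Fgfr1 iΔEC/iΔEC level of Il1b was 0.537 to 0.639 of the control and that of Il1a 0.612 to 0.712. The ranges were wider for Il1rn (0.481 to 0.866) and Il18 (0.464 to 0.860). With the pairs as a block, limma gave these genes adjusted p-values of 0.528 (Il1b), 0.527 (Il1a), 0.593 (Il1rn) and 0.646 (Il18), so no call was gained.

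The remaining members varied more within a genotype than between genotypes. Il1r2 was at 40.7, 66.3 and 86.7 FPKM against 26.1, 81.3 and 50.7 FPKM (-0.37 ± 0.45), and Il1r1 at 9.29, 10.3 and 6.28 FPKM against 7.60, 8.18 and 8.10 FPKM (-0.08 ± 0.17). Il33 was at 12.7 FPKM in Fgfr1 loxP/loxP 3 and at 1.68 to 5.70 FPKM in the other 5 libraries. Il18bp was the only member above 0 (0.28 ± 0.38). Il1rl1 again rested on 2 to 34 reads and was not tested.

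Some marker lists differed in 1 direction in all pairs. The neutrophil markers summed to 1167, 2559 and 2571 FPKM in Fgfr1 loxP/loxP 1 to 3 and 751, 2453 and 1525 FPKM in Fgfr1 iΔEC/iΔEC 1 to 3, lower in 3 of 3 pairs. The epithelial markers, with Sftpc of alveolar type II cells the most abundant, summed to 936, 1689 and 2941 FPKM and 434, 1115 and 859 FPKM, also lower in 3 of 3 pairs. The means of the mural and group 2 innate lymphoid lists were lower in 3 of 3 pairs as well. The leukocyte, monocyte and macrophage, lymphocyte, and mast cell and basophil means were lower in 2 of 3 pairs, and the fibroblast and lymphatic endothelial means in 1 of 3. In the second pair, where Il1a, Il1b and Il1rn were lower, the leukocyte mean was higher (6.48 against 6.75 in Fgfr1 iΔEC/iΔEC 2, as log2(FPKM + 1)) and so was that of the monocyte and macrophage list (4.64 against 4.93). The endothelial mean was higher in Fgfr1 iΔEC/iΔEC mice in 3 of 3 pairs (by 0.28 on the log2 scale on average). Their part in the values of the family was not tested.

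The within-library ratios were compared between genotypes as well. The log2 difference was 0.10 for Il1rn to Il1b and -0.29 for Il1r2 to Il1r1 (exact permutation p = 0.7 for both), and 0.85 for Il18bp to Il18 and 0.55 for Il1rl1 to Il33 (exact permutation p = 0.5 for both). When single libraries were left out, Il18bp to Il18 ran from 0.0634 to 1.56 and Il1rl1 to Il33 from 0.0187 to 0.99. With 3 against 3 libraries the smallest p possible is 0.1, so these tests, which leave out the pairs, could not have passed. With 0.1 FPKM added, the log2 ratio of Il1rl1 to Il33 was -3.83, -5.22 and -5.11 in Fgfr1 loxP/loxP 1 to 3. In Fgfr1 iΔEC/iΔEC 1 to 3 it was -3.12, -4.61 and -4.79, higher in 3 of 3 pairs, on the few reads of Il1rl1. In the third pair this direction came from the addition. There Il1rl1 was at 0.361 of its control and Il33 at 0.422, so the ratio without the addition was lower. The other 3 ratios were not in 1 direction in all pairs.

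The pathway lists held no call between genotypes. Among the interleukin-1 responsive genes, Icam1 (0.90 ± 0.27), Sele (1.02 ± 0.41), Selp (0.65 ± 0.38) and Nfkbia (0.22 ± 0.18) were higher in every Fgfr1 iΔEC/iΔEC library than in every control, 4 of the 14 tested against 6.1% of all genes (4.07% were lower without overlap), at adjusted p-values of 0.962 by limma. Over the list 8 of 14 were above 0, with a median of 0.09, and Vcam1 (-0.04), Cxcl2 (-0.53) and Ptgs2 (-0.46) were below it. With endothelial scaling Icam1, Sele and Selp were at 0.62, 0.75 and 0.38, and Nfkbia, which encodes an inhibitor of NF-κB, turned to -0.0615. That scaling moves genes together, with a median of -0.21 over all genes, so the place of Nfkbia above that median is no separate result. Of the signaling genes, 1 of 13 had its groups apart in this direction, and of the maturation genes none of 10.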

How the data were processed

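The authors aligned reads to GRCm38 (mm10) with HISAT2 2.0.5, counted them on genes with featureCounts 1.5.0-p3 and deposited FPKM with gene lengths, per the labels and the methods. Strandedness and annotation release are not given in the sources used here. The FPKM gave whole reads for 100% of values (tolerance 0.02), and their library sizes matched median-of-ratios factors to within 0.182%, by which values were scaled. For 11 symbols that the second file holds as dates, those of the first were used. limma 3.58.1 in R 4.3.3 (lmFit, eBayes with trend) was run on log2(FPKM + 1) where a gene's mean reached 0.5 FPKM, within each experiment, and tested on simulated data. Ratios were tested by exact permutation in scipy 1.17.1, with 0.1 FPKM added. Named were all members, up to 4 called genes per list by size, the receptors Il18r1, Il18rap, Il1rl2 and Sigirr, and the 3 genes most like each member. Il1r1 and other uncalled values, Irak4, Irak1, Peli1, Tab2, Gsdmd, Nlrc4, Aim2, Elane, Sele, Vcam1, Ptgs2, Icam1, Selp and Nfkbia were named after their values were seen. Members and lists were chosen with earlier results of these data known. The labels do not say that each library came from a separate mouse, so p-values measure the spread between libraries. Without molecular identifiers, reads need not be independent. Alternatives were other pseudocounts, filters and scalings, limma-voom on the recovered reads, a replicate block and leaving out each library. With saline and LPS, same-numbered libraries did not deviate together (r = -0.21 to 0.10).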

Additional observations from a re-analysis of the deposited data

Results flagged for a closer look

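In 10 of 38 group values examined, 1 library lay far from the rest of its group by Dixon's criterion, where chance alone gives about 1.9. Saline 1 accounted for most of them. Il1b was at 265 FPKM there against 4.46 to 27.9 FPKM in saline 2 to 4, Il1r2 at 59.5 against 0.308 to 0.763 FPKM, and Il1rn at 2.96 against 0.147 to 0.486 FPKM. The receptor genes Il18r1 (3.77 against 1.24 to 1.43 FPKM) and Il18rap (2.81 against 0.444 to 0.821 FPKM) and the log2 ratio of Il1r2 to Il1r1 (3.24 against -4.05 to -3.04) stood apart in the same library. The neutrophil markers of saline 1 summed to 1401 FPKM against 74.0 to 311 FPKM, while Il1a was not raised there (1.46 against 1.65 to 2.17 FPKM).

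In LPS 1, Il1rap was at 3.98 FPKM against 2.30 to 2.92 FPKM in the other LPS libraries, Il18rap at 9.27 against 2.51 to 4.39 FPKM, and the log2 ratio of Il1rl1 to Il33 at -1.36 against -3.71 to -3.36. LPS 1 also had the lowest endothelial marker sum (1509 FPKM) and the highest macrophage marker sum (808 FPKM) of its group. Il18 in saline 3 was at 3.58 FPKM against 1.36 to 1.72 FPKM.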

How the results depend on the processing

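The calls of Il1a, Il1b, Il1rn and Il1r2 after LPS held under every alternative and in all 10 fits that left out 1 library. Their log2 fold changes were 4.53 to 4.93, 4.14 to 6.01, 6.11 to 6.71 and 4.09 to 5.93 in the latter. Members called higher numbered 5 with a pseudocount of 0.1 or limma-voom (Il18 at 1.04 and 1.08 joined) and 6 with endothelial scaling, where Il18 was at 1.33 and Il18bp at 1.12. The median over all genes, near 0 as reported (0.01 in both comparisons), was 0.58 after LPS and -0.21 between genotypes with endothelial scaling, and -0.14 after LPS with scaling on total reads. Il1r1 (0.24) and Il33 (0.28) turned sign under endothelial scaling and did not pass there (adjusted p = 0.304 and 0.234 by limma). Genes called higher numbered 4465 with endothelial scaling and 4399 without the fold limit. Genes called lower numbered 1840 with a pseudocount of 0.1, 201 with endothelial scaling, 2008 with limma-voom and 3529 without the fold limit, which also counts 1 member, Il1r1, as lower. Between genotypes no gene was called under any alternative. With single libraries left out there, the log2 fold change ran from -0.27 to 0.0469 for Il1r1, -0.75 to 0.0559 for Il1r2, -0.29 to 0.0587 for Il1rap, -0.0539 to 0.61 for Il18bp and -0.81 to 0.0540 for Il33. For Il18 it ran from -0.80 to -0.0397. In the same fits the log2 ratio of Il1rn to Il1b ran from -0.0942 to 0.28 and that of Il1r2 to Il1r1 from -0.66 to 0.17, and after LPS that of Il1rl1 to Il33 ran from -0.0311 to 0.45, negative without LPS 1. The causes were not tested. The replicate block, in which LPS 5 and LPS 6 have no partner, called 1925 genes higher and 1063 lower after LPS and none between genotypes, and changed no call of a member. Il1rl1 and Il18 rest on few reads, which limits their precision.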
